A study of Mus musculus with 8 samples.

Results

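The genes described here are Ly6m, Ly6a, Ly6c1, Ly6d, Ly6e, Ly6k, Lypd8, and Plaur, a set of 8 genes of the Ly6/uPAR family. They were chosen by family and with the difference of Ly6m between the 2 groups of mice below already known, so that their differences between these groups are given as descriptions with no test. Every probe set whose array annotation names 1 of these genes and no other was taken, which gave 8 probe sets for 6 of the 8 genes, among 45037 probe sets for 18193 genes in all. Ly6a and Ly6c1 have no probe set of their own in that annotation and were not analysed here. Ly6m (1449496_at), Ly6d (1416930_at), Lypd8 (1451441_at), and Plaur (1452521_a_at) each had 1 probe set, and Ly6e (1439773_at and 1453304_s_at) and Ly6k (1452855_at and 1454071_at) each had 2. The 6 genes were also matched to RefSeq by gene ID, which gave the same symbol for 8 of the 8 probe sets, since older names are shared in this family (Ly6i once carried the name Ly-6M and is another gene than Ly6m).

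Gene expression was measured in sorted colonic epithelial cells of male C57BL/6 mice raised under specific pathogen-free conditions. All mice received metronidazole and ciprofloxacin, and at 8 wk of age they were colonized with wild-type Bacteroides thetaiotaomicron (BTWT, 4 mice) or with its mutant that lacks the MAFF locus (BTΔMAFF, 4 mice). Cells were taken at 12 wk of age, 4 wk after colonization, with 1 array per mouse. The sort was for living cells that carried EpCAM and lacked CD45, a marker of leukocytes. By the study's methods its purity was high but not complete. For the arrays, cDNA was amplified from the RNA of the sorted cells. Antibiotic-treated mice with no B. theta were not analysed here. Both groups share the antibiotics and colonization with B. theta, wild type or mutant, and no value below is a difference from an uncolonized colon. The mutant is a bacterial strain, and the mice themselves carry no altered gene.

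The Ly6/uPAR family consists of small cysteine-rich proteins with a shared three-finger fold, most of which are held at the outer face of the cell membrane by a glycosylphosphatidylinositol (GPI) anchor. In the colon, Lypd8 is made by surface colonocytes and is shed into the lumen, where it binds flagellated bacteria and keeps them away from the epithelium. Plaur encodes the urokinase receptor, which gathers urokinase at the cell surface for the activation of plasminogen. Ly6a (Sca-1), Ly6c1, and Ly6e are known for induction by interferons, Ly6d marks early B lineage cells and stratified epithelia, and Ly6k is known from testis. The specific role of Ly6m is not settled by the labels, and none is assumed.

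The deposited values were log2 values from which the median of the 8 arrays had been subtracted for each probe set. A value of 0 therefore lies midway between the fourth and the fifth of the ordered arrays, and no value tells how strongly a gene was expressed or whether it was detected. The genes could not be ordered by level for this reason, and each is compared with itself across mice. In bulk RNA of this kind, fewer cells of a type and less RNA per cell cannot be told apart. The arrays of BTWT replicate 2 and BTΔMAFF replicate 4 stood apart on the first principal component (29.5% of the variance), with scores of 58.1 and 47.0, against -36.8 to -6.4 for the other 6 arrays. Without these 2 arrays the log2 difference was -2.09 for Ly6m, 0.48 for Ly6e, 0.009 for Ly6d, 0.03 for Ly6k, -0.03 for Lypd8, and -0.003 for Plaur. The presence of the labelled cell type cannot be checked from centred values, but the markers of other cell types can be compared between the groups, and they are given with the gene lists.

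Ly6m was lower in BTWT than in BTΔMAFF mice. Its centred log2 values were -0.73, -0.60, -0.50, and -0.71 in BTWT replicates 1 to 4, and 1.08, 1.51, 1.73, and 0.50 in BTΔMAFF replicates 1 to 4. The groups did not overlap, the BTWT mice lay close together, and BTΔMAFF replicate 4, 1 of the 2 arrays that stood apart, was the lowest of its group. The values -0.50 and 0.50 are the fourth and the fifth of the ordered arrays and mirror each other through the centring. The BTWT mean was -0.64 ± 0.11 (SD, n = 4 mice), and the BTΔMAFF mean was 1.21 ± 0.54 (SD, n = 4 mice). The log2 difference, BTWT minus BTΔMAFF, was -1.84 (standard error 0.25, 95% interval -2.44 to -1.24), which is 3.59-fold lower in BTWT. Over all 8 arrays the SD of Ly6m was 1.05 on the log2 scale, at percentile 99.6 of all probe sets. Its absolute difference was number 32 in size among 45037. Ly6m was chosen on this difference, which also enters that SD, so nothing is read from either rank.

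**Figure D1:**
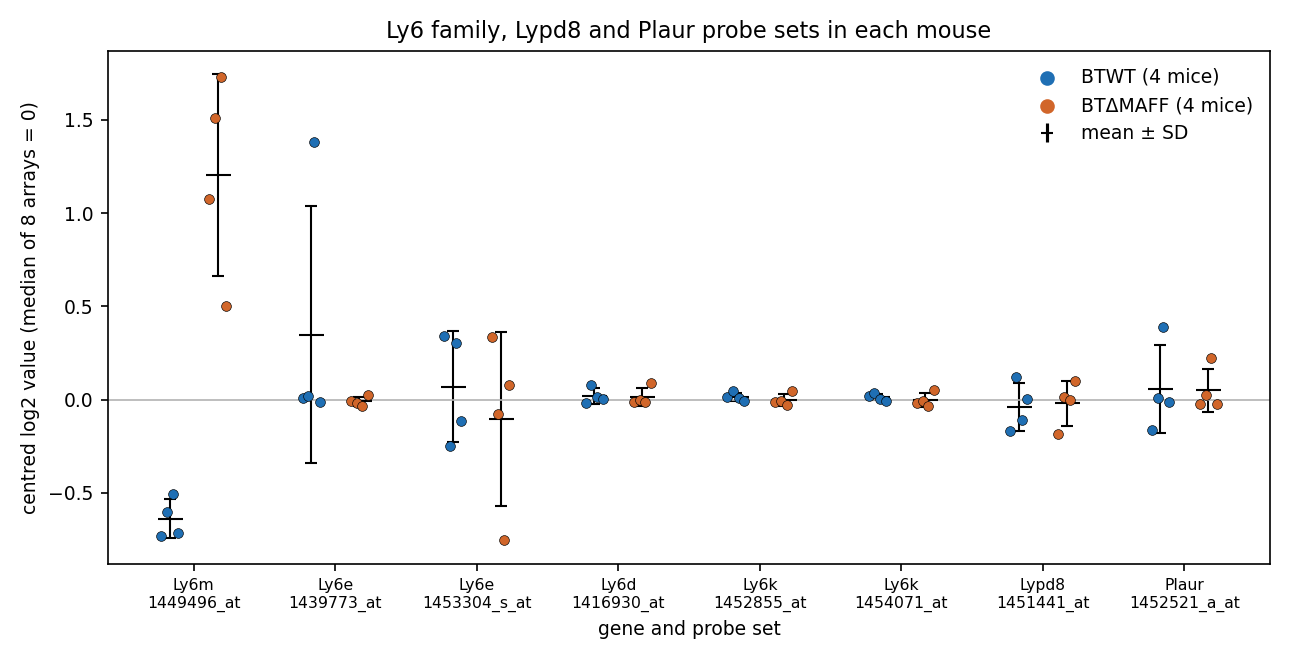
Centred log2 value of each probe set of the 6 measured genes in each mouse, with 0 at the median of the 8 arrays; points are single mice, and bars are the mean ± SD of the 4 mice of a group. The BTWT points of Ly6m lie from -0.73 to -0.50, all below the BTΔMAFF points from 0.50 to 1.73, and the groups overlap for the other 7 probe sets.

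Lypd8, the member best known for a role at the colonic surface, was nearly level across the mice. Its centred log2 values were -0.17, 0.12, -0.11, and 0.001 in BTWT and -0.19, 0.01, -0.001, and 0.10 in BTΔMAFF replicates 1 to 4. Replicate 1 was the lowest mouse of each group, and the highest mice were BTWT replicate 2 and BTΔMAFF replicate 4, the arrays that stood apart. The means were -0.04 ± 0.13 (SD, n = 4) and -0.02 ± 0.12 (SD, n = 4), and the log2 difference was -0.02 (standard error 0.083, 95% interval -0.21 to 0.18). Differences in Lypd8 within that interval are compatible with these values, so equal expression in the groups is not shown. The SD over the 8 arrays was 0.11, at percentile 47.6 of all probe sets, and the value of BTWT minus BTΔMAFF was between -0.07 and 0.02 over 16 other settings of the processing.

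Plaur, the urokinase receptor, overlapped between the groups as well. Its centred log2 values were -0.16, 0.01, 0.39, and -0.01 in BTWT and -0.02, 0.03, 0.22, and -0.02 in BTΔMAFF replicates 1 to 4. Replicate 3 was the highest mouse in each group, and the other mice lay between -0.16 and 0.03. The log2 difference was 0.006 (standard error 0.12, 95% interval -0.28 to 0.29). It was -0.10 without BTWT replicate 3 and 0.18 when arrays were weighted by their quality, so its sign was not settled.

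Ly6e, a cell surface protein known for its part in the restriction of virus entry, was measured by 2 probe sets that went their own ways. In the probe set with the larger SD over the 8 arrays (1439773_at), 7 of 8 mice lay between -0.03 and 0.02 on the centred log2 scale, and BTWT replicate 3 was at 1.38. The log2 difference of 0.36 (standard error 0.32, 95% interval -0.39 to 1.11) came from that mouse, since it was 0.014 without it. In the other probe set (1453304_s_at), the BTWT values were 0.34, -0.25, 0.30, and -0.12 and the BTΔMAFF values 0.34, -0.08, -0.75, and 0.08. BTWT replicate 3 did not stand out there, and BTΔMAFF replicate 3 was the lowest of the 8 mice. The difference of that probe set was 0.17 (standard error 0.26, 95% interval -0.43 to 0.78), the groups overlapped in both, and Pearson's r between the 2 probe sets was 0.36 (Spearman's rho 0.45) over the same 8 arrays.

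Ly6d and Ly6k varied little in these cells. The values of Ly6d were -0.02, 0.08, 0.01, and 0.003 in BTWT and -0.01, -0.003, -0.01, and 0.09 in BTΔMAFF, with a log2 difference of 0.005 (standard error 0.035, 95% interval -0.08 to 0.09). The highest mouse of each group was again the array that stood apart. The 2 probe sets of Ly6k lay between -0.03 and 0.05 in all 8 mice, with a log2 difference of 0.02 (standard error 0.026 for each, 95% interval -0.04 to 0.08 for each). The SD over the 8 arrays was 0.042 for Ly6d and 0.027 and 0.029 for the probe sets of Ly6k.

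The median of all probe sets of an array ran from -0.03 (BTΔMAFF replicate 3) to 0.04 (BTΔMAFF replicate 4), and Pearson's r with these 8 medians was 0.99 for each probe set of Ly6k and 0.82 for Ly6d. The 2 probe sets of Ly6k had an r of 0.98 with each other. After the array median had been subtracted, the SD was 0.0037 and 0.0049 for the probe sets of Ly6k and 0.026 for Ly6d. The same 8 arrays enter each of these correlations, and an array-wide shift is shared by all probe sets of an array. For comparison, r with the array medians was 0.41 for Lypd8, -0.33 for Plaur, and -0.59 for Ly6m.

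**Figure D2:**
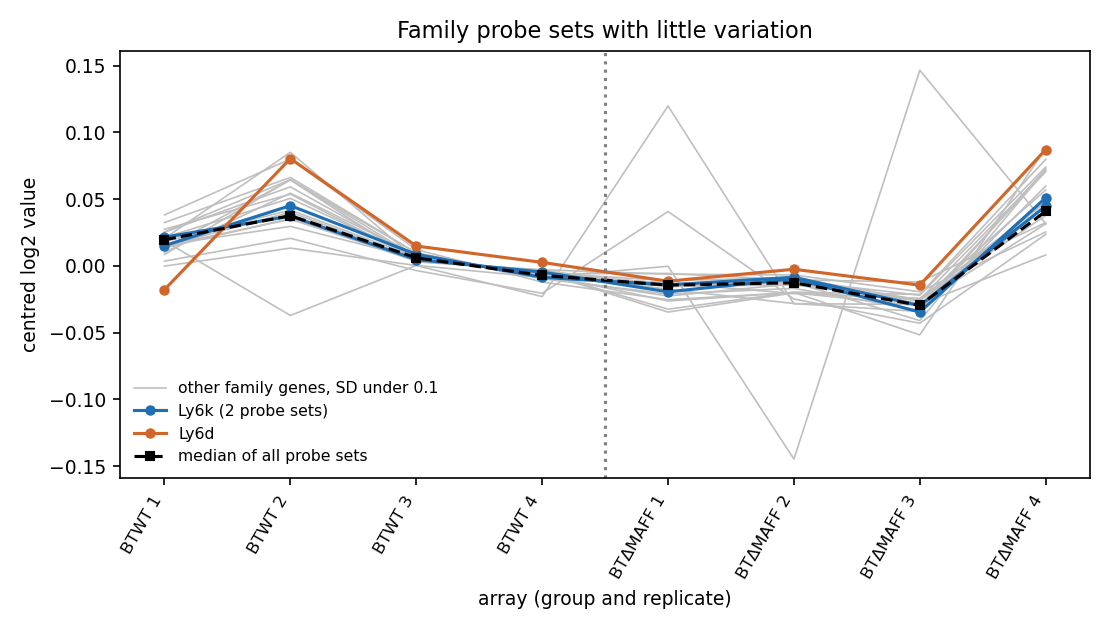
Centred log2 value per array of Ly6k, Ly6d, and the other family genes whose SD over the 8 arrays was under 0.1, with the median of all probe sets of each array as a dashed line; the dotted vertical line parts the groups. The Ly6k lines follow the dashed line, which runs from -0.03 to 0.04, and Ly6d leaves it mainly in BTWT replicates 1 and 2 and BTΔMAFF replicate 4.

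Of the 6 measured genes, 1 (Ly6m) did not overlap between the groups, with BTWT below, and 1.84% of all 18193 genes had every BTWT array below every BTΔMAFF array. The study's own thresholds for these arrays, more than 2-fold and an unadjusted p under 0.05 (here in limma), were passed by 0.286% of all probe sets on the lower side and by 0.262% on the higher side of BTWT. Without BTΔMAFF replicate 4 the lower count went from 129 to 204 probe sets, and with array weights 402 were lower and 274 higher. The members were not held to these thresholds, since Ly6m was chosen on this contrast, and nothing is read from the shares for them. The median log2 difference was 0.006 over the 6 genes and 0.02 over all genes, and it lay between -0.01 and 0.02 over 16 alternative settings. No probe set of the whole array passed a Benjamini-Hochberg adjusted p of 0.05 in limma (2295 had an unadjusted p under 0.05), and the methods' t-test also gave 0, with 1721 before adjustment. Lists of genes are therefore described by the unadjusted threshold, a limma p under 0.05 before adjustment.

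Of 38 further Ly6/uPAR genes listed, 24 were measured with 31 probe sets, and 0 passed the unadjusted threshold of limma in either direction, as in the methods' t-test. Among all genes, 2.35% were higher and 3.37% were lower by that measure. Their median log2 difference was 0.02, from -0.23 to 0.11, and 5 of 24 were below 0. Ly6g6c had a log2 difference of -0.23 (standard error 0.16), Spaca4, a sperm acrosome protein, one of -0.12 (standard error 0.25), and Ly6g6e one of 0.11 (standard error 0.14), with adjusted p-values from limma of 0.828, 0.829, and 0.828. With array weights, in which BTWT replicate 3 and BTΔMAFF replicate 2 had the weights 4.68 and 4.36 and the 2 arrays that stood apart 0.27 and 0.12, 4 of the 24 genes passed the unadjusted threshold with BTWT higher. These were Ly6i, Tex101, Ly6h, and Lypd6, named after their values were seen, with differences of 0.03, 0.03, 0.03, and 0.04 on the log2 scale. Their r with the array medians was 0.989, 0.955, 0.984, and 0.998. The part of the array-wide shift in these differences was not tested.

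Most of the family was as level as Ly6d and Ly6k. An SD under 0.1 over the 8 arrays, a limit set after the values were seen, was found in 19 of 24 other family genes (79.2%), against 38.6% of all genes. The differences of these 19 genes lay between -0.02 and 0.03, and their median r with the array medians was 0.98. Not all of them followed the medians, as r was -0.15 for Ly6g6d, the lowest, and 0.02 for Lypd6b. The other 5 genes were Ly6g6c, Spaca4, Ly6g6e, Ly6g2, and Lypd1. For Ly6g6c, BTΔMAFF replicate 3 held 0.73 and no other mouse was above 0.14, and its other 2 probe sets stayed within 0.03 of 0. The largest SD among the 24 genes was 0.36, for Spaca4, and that of Ly6e was 0.49. The SD of 1.05 for Ly6m contains the group difference on which it was chosen, so it cannot be set against these. Within the groups, the SD of Ly6m was 0.11 in BTWT and 0.54 in BTΔMAFF, and that of Spaca4 was 0.39 and 0.37.

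**Figure D3:**
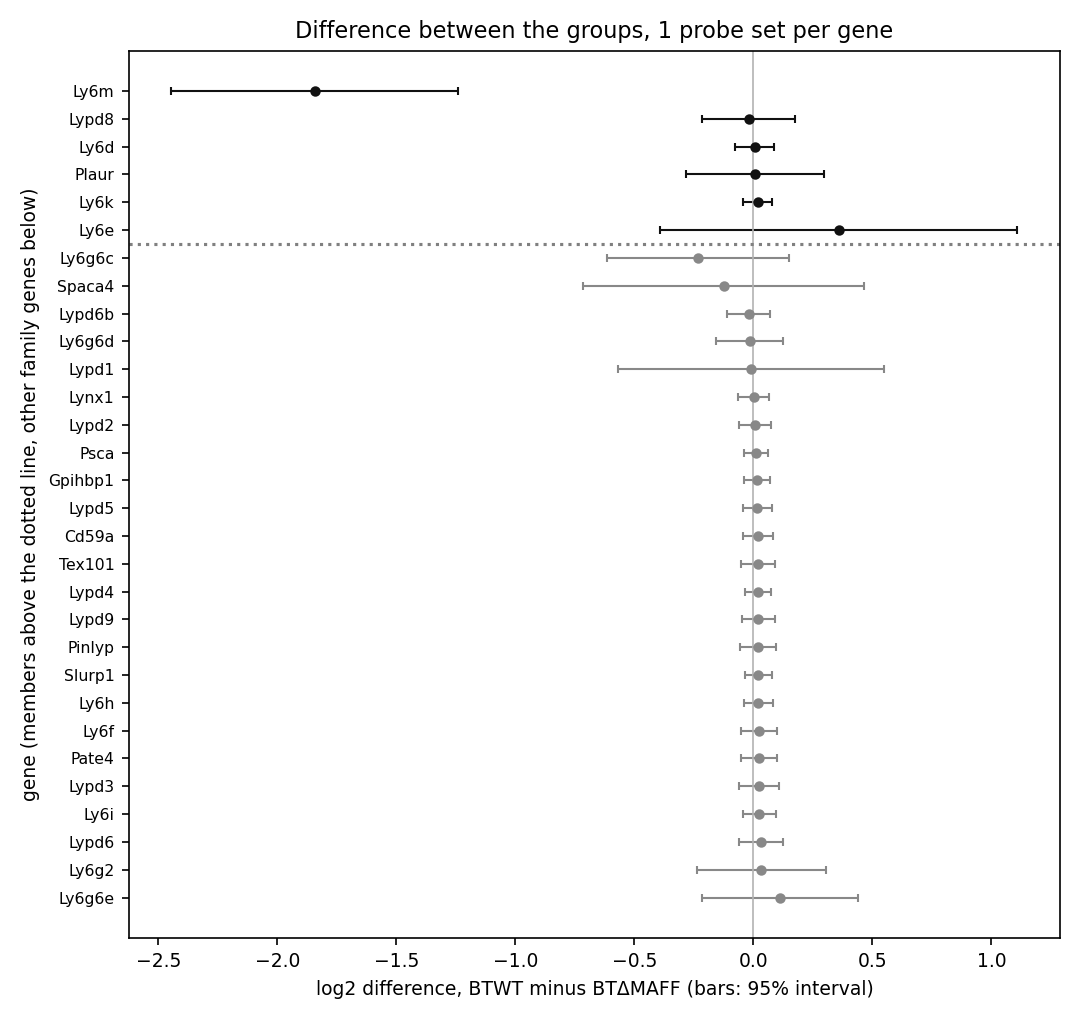
Log2 difference, BTWT minus BTΔMAFF, of the 6 measured genes (above the dotted line) and of 24 other family genes (below it), 1 probe set per gene; points are estimates and bars 95% intervals from limma. Ly6m, which was chosen on this difference, lies at -1.84, the other 5 members between -0.02 and 0.36, and the 24 other family genes between -0.23 and 0.11.

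Ly6m lies among its relatives in the genome. In the RefSeq table of GRCm38.p6, 22 protein-coding genes follow each other on chromosome 15 from Ly6d to Ly6h, and 11 of them were measured. The build of the array annotation is not given in the sources used here, so only the order of genes is used. The neighbours of Ly6m are Cyp11b2, the aldosterone synthase, with a log2 difference of 0.01 (standard error 0.024), and Ly6e. Of the 10 measured genes other than Ly6m, 9 had a difference within 0.05 of 0, the tenth was Ly6e at 0.36, and 0 had an unadjusted p under 0.05 in limma. The lowest of these p-values was 0.298, and the median difference was 0.02. Of the 9, Ly6g2 had an SD of 0.16 over the 8 arrays, and the others 0.023 (Cyp11b2) to 0.051 (Ly6g6g). Probe sets this level leave little room for a difference. The value of Ly6e came from BTWT replicate 3 and was 0.014 without it. Nothing is read from these genes about the region around Ly6m. Lypd8 lies on chromosome 11, and its neighbours Sh3bp5l and 1810065E05Rik had differences of -0.27 (standard error 0.45) and 0.04 (standard error 0.12).

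**Figure D4:**
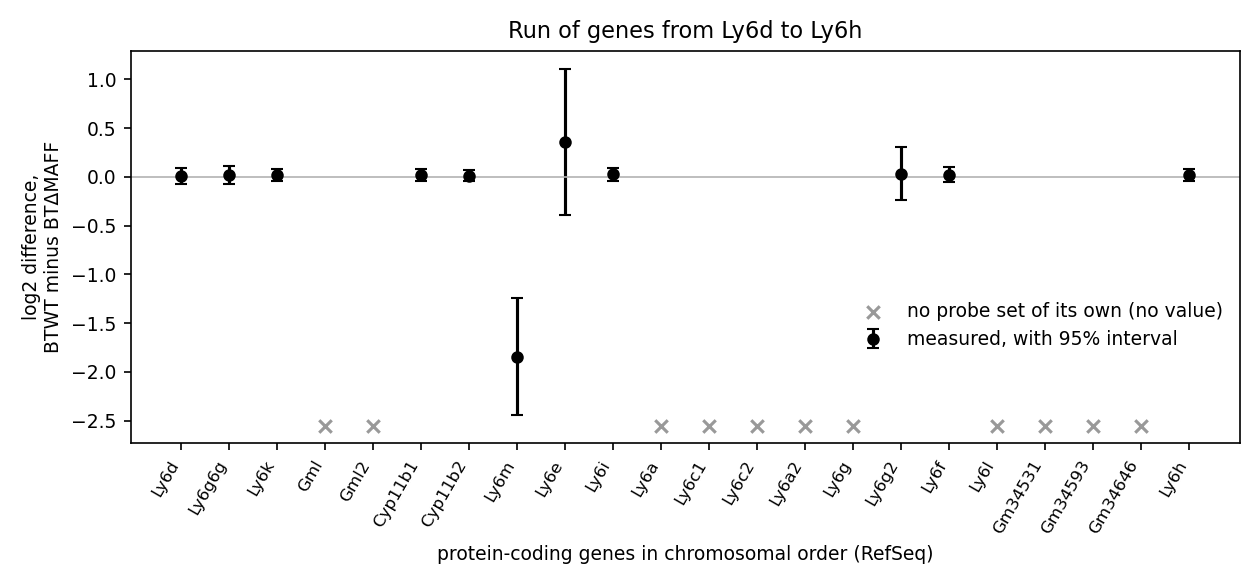
Log2 difference, BTWT minus BTΔMAFF, with 95% intervals from limma, of the 22 protein-coding genes from Ly6d to Ly6h in their chromosomal order (not to distance); crosses at the lower edge mark genes without a probe set of their own and carry no value. Ly6m, which was chosen on this difference, lies at -1.84, and the other 10 measured genes lie between 0.005 and 0.36.

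The genes whose pattern over the 8 arrays was most like that of Ly6m, by Pearson's r, were Dot1l (0.978), Slc26a3 (0.972), Gramd1b (0.960), Sult2b1 (0.958), and Ctdsp1 (0.956). Dot1l encodes a histone H3 methyltransferase, Slc26a3 the chloride and bicarbonate exchanger of surface colonocytes, Gramd1b a sterol transfer protein, Sult2b1 a sterol sulfotransferase, and Ctdsp1 a phosphatase of RNA polymerase II. In each of them the groups did not overlap, with BTWT below, and their log2 differences were smaller than that of Ly6m, at -0.77 for Dot1l, -0.48 for Slc26a3, -1.26 for Gramd1b, -0.57 for Sult2b1, and -0.32 for Ctdsp1. As in Ly6m, BTΔMAFF replicate 4 was the lowest and replicate 3 the highest mouse of its group. These 5 were the nearest of 18193 genes over only 8 arrays, and the arrays are those on which Ly6m was chosen.

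For Lypd8 the nearest genes were Ppp1r11 (0.974), AY036118 (0.967), Mark2 (0.959), 4933431E20Rik (0.958), and Max (0.955), with overlapping groups in all. Ppp1r11 encodes an inhibitor of protein phosphatase, Mark2 a kinase of cell polarity, and Max the partner of Myc. In Lypd8 and in these 5 genes, the 2 highest mice were BTWT replicate 2 and BTΔMAFF replicate 4, the arrays that stood apart. The part of these 2 arrays in the pattern was not tested.

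**Figure D5:**
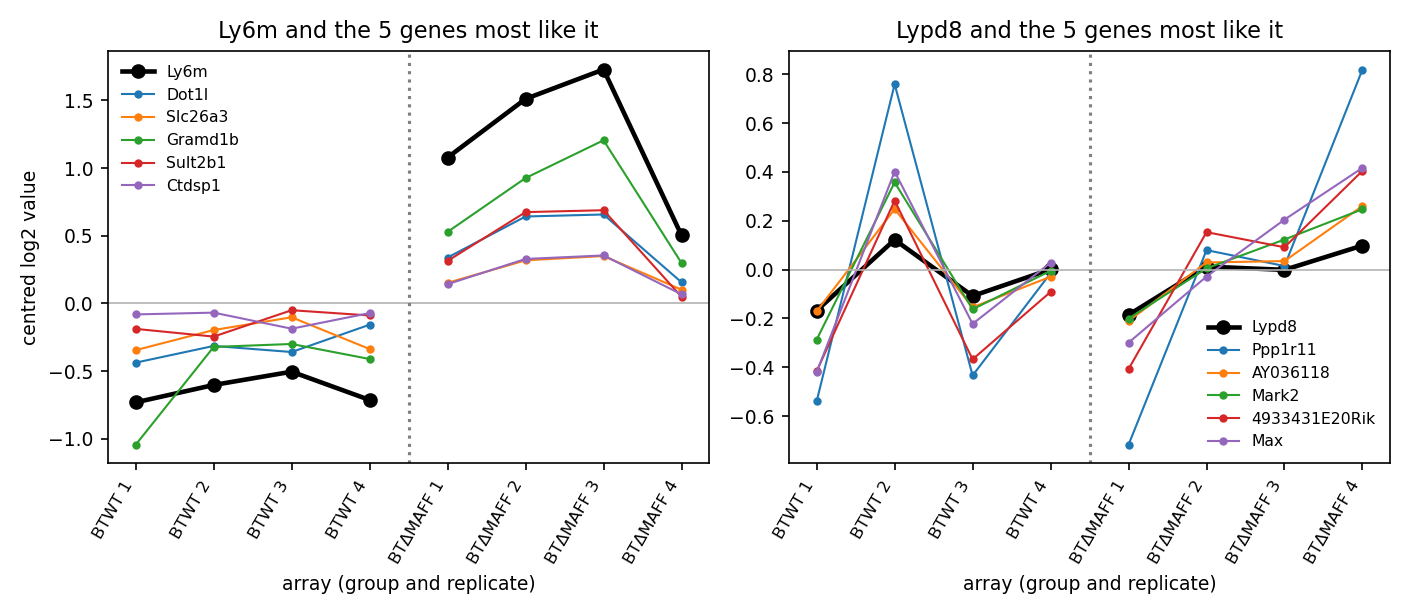
Centred log2 value per array of Ly6m (left, thick line) and Lypd8 (right, thick line) with the 5 genes of highest Pearson correlation to each; the vertical axes differ between the panels, and the dotted lines part the groups. All lines on the left lie below 0 in BTWT and above it in BTΔMAFF, and all lines on the right have their highest points at BTWT replicate 2 and BTΔMAFF replicate 4.

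Other genes that share the GPI anchor were set beside the family. Of 40 measured genes for other GPI-anchored proteins, 0 passed the unadjusted threshold on the higher and 2 on the lower side of BTWT, with a median log2 difference of 0.02. Cd55, the complement decay-accelerating factor, was at -0.56 ± 0.26 (SD, n = 4) in BTWT and 0.60 ± 0.29 (SD, n = 4) in BTΔMAFF. Its log2 difference was -1.16 (standard error 0.18, adjusted p = 0.209 in limma) and its groups did not overlap. Efna3, an ephrin ligand, had a difference of -0.81 (standard error 0.34, adjusted p = 0.828), whereas Efna1 and Prnp, which encodes the prion protein, had differences of 0.45 and 0.53 that missed the unadjusted threshold. Of 27 measured genes for the synthesis and attachment of the anchor, 0 passed the unadjusted threshold of limma in either direction. The median difference of these genes was 0.11, and those with the lowest p were Piga and Pigc, of the first step of synthesis, at 0.50 each, Mppe1 at -0.18, and Pigl at 0.37. The groups did not overlap for Piga, with BTWT above, and overlapped for Pigc, Mppe1, and Pigl.

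Of 17 measured genes of the urokinase and plasminogen system, the partners of Plaur, 0 passed the unadjusted threshold on the higher and 1 on the lower side, and the median log2 difference was 0.02. The 1 gene was Anxa2, a cell surface annexin that binds plasminogen and its activator, with a difference of -0.45 (standard error 0.10, adjusted p = 0.468 in limma) and groups that did not overlap. Itga5, an integrin subunit, had a difference of 0.26 (standard error 0.17), Lrp1, which clears the receptor complex, one of -0.33 (standard error 0.24), and Plg, plasminogen, one of 0.02 (standard error 0.023). An SD under 0.1 was found in 10 of these 17 genes.

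Genes induced by interferon were compared because Ly6e and other members are known to respond to it. Of 40 measured, 1 passed the unadjusted threshold with BTWT higher and 4 with BTWT lower, and the median log2 difference was -0.32. The mean of the list ran from -0.53 to 0.13 in BTWT and from 0.03 to 0.16 in BTΔMAFF. BTWT replicates 1 and 2 were the low ones, so that the groups overlapped. Irgm1 was at 0.22 (standard error 0.07), Xaf1 at -0.63 (standard error 0.21), Zbp1 at -1.15 (standard error 0.40), Tap1, the peptide transporter for antigen presentation, at -0.51 (standard error 0.20), and Oas3 at -1.10 (standard error 0.45), with adjusted p-values from 0.690 to 0.828 in limma. In BTWT replicates 1 and 2, Ly6e was at 0.34 and -0.25 by probe set 1453304_s_at. By 1439773_at, which was level in all mice but BTWT replicate 3, it was at 0.007 and 0.02. A relation of Ly6e to this list was not tested.

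Markers of the cell layers were followed because Lypd8 belongs to the surface. Of 18 measured surface colonocyte markers, 2 passed the unadjusted threshold with BTWT higher and 2 with BTWT lower, with a median of -0.03 and list means from -0.12 to 0.15 in BTWT and from -0.15 to 0.12 in BTΔMAFF. Slc26a3 (-0.48, standard error 0.08) and Krt20 (-0.32, standard error 0.10), a keratin of differentiated enterocytes, were lower, and Sult1a1 (0.43, standard error 0.17) and Ceacam20 (0.38, standard error 0.16) were higher, with adjusted p-values from limma of 0.243, 0.694, 0.828, and 0.828. Goblet cell markers held 1 higher and 4 lower genes of 15 (median -0.17). On the lower side were Fcgbp at -0.67 and Clca1 at -0.90, both mucus proteins, Capn9 at -1.22, and Bcas1 at -0.42, and on the higher side Agr2 at 0.55. Their standard errors were 0.14 to 0.35 and their adjusted p-values 0.414 to 0.828 in limma. The goblet list mean ran from -0.47 to 0.16 in BTWT and from 0.0002 to 0.31 in BTΔMAFF, so the groups overlapped. Crypt stem cell markers held 1 higher and 0 lower genes of 14 (median 0.24), the 1 gene being Ephb3 at 0.70 (standard error 0.23, adjusted p = 0.790 in limma). General epithelial markers held 0 higher and 2 lower genes of 11 (median -0.10). These were Vil1 at -0.40 (standard error 0.10) and Krt19 at -0.22 (standard error 0.08), with adjusted p-values from limma of 0.489 and 0.828.

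Markers of cells that the gate should leave out were compared as well. Of 19 leukocyte and 12 endothelial markers measured, 0 passed the unadjusted threshold of limma in either direction, and 17 and 10 of them had an SD under 0.1. The leukocyte list mean was between -0.02 and 0.09 in BTWT and between -0.02 and 0.10 in BTΔMAFF, and the endothelial list mean was between -0.05 and 0.07 and between -0.04 and 0.06. Not every leukocyte marker was level. Csf1r was at -0.01 ± 0.02 (SD) in BTWT and 0.51 ± 0.84 (SD) in BTΔMAFF, with overlapping groups and a log2 difference of -0.52 (standard error 0.39). The other leukocyte markers of lowest p, S100a9, Coro1a, and S100a8, had differences of 0.07, 0.09, and 0.06. Fibroblast markers held 1 higher gene, Pdgfrb at 1.16, and 0 lower of 12 (median -0.18). Col3a1 at -1.14 (standard error 0.49), Sparc at -1.02 (standard error 0.55), and Col1a1 at -0.77 (standard error 0.45), all of the extracellular matrix, had the opposite sign and missed the unadjusted threshold. The fibroblast list mean ran from -0.43 to 0.35 in BTWT and from -0.06 to 0.78 in BTΔMAFF, so the groups overlapped, and its part in the difference of Ly6m was not tested. Circadian clock genes held 2 higher and 10 lower genes of 17, with a median of -0.56. The 4 of lowest p were Ciart at -3.41 (standard error 0.39), Per3 at -1.80 (standard error 0.21), Per1 at -2.33 (standard error 0.36), and Tef at -2.10 (standard error 0.36), with adjusted p-values from 0.141 to 0.243 in limma, and the 2 higher genes were Cry1 at 0.75 and Nfil3 at 1.84. The clock list mean ran from -0.46 to -0.16 in BTWT and from 0.20 to 0.62 in BTΔMAFF and did not overlap between the groups, as Ly6m did not. The part of the clock genes' difference in that of Ly6m was not tested.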

How the data were processed

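RNA of sorted colonic epithelial cells was amplified and hybridized to Affymetrix mouse genome arrays, 1 per mouse. The authors deposited log2 values, centred for each probe set on its median over the 8 arrays. Affymetrix Expression Console is named in the submitters' processing notes, and GeneSpring in the study's methods. How probe sets were summarized, corrected for background, and normalized is not given in the sources used here. Precision is limited by the number of arrays, 4 per group.

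The 45037 probe sets left after 64 Affymetrix controls entered 1 fit of BTWT minus BTΔMAFF without covariates (limma 3.58.1 under R 4.3.3, lmFit followed by eBayes), and p-values were adjusted by Benjamini-Hochberg. The study's thresholds, more than 2-fold and p under 0.05 before adjustment, gave 118 higher and 129 lower probe sets. The array annotation gives 34945 probe sets 1 gene, 932 several, and 9160 none, and only the first were named. The probe set of largest SD over the 8 arrays stood for its gene. The fit was also run on simulated independent normal values with known group differences. These had equal spread in both groups, no arrays that stood apart, and no array-wide shifts. That run therefore tells nothing about how the fit handles such features of the real arrays.

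The members and the 13 gene lists, other cell types included, were chosen with earlier results of these data known. Named are all members, the 3 other family genes of largest difference, up to 4 genes of lowest p per list, genomic neighbours, and the 5 genes most correlated with Ly6m and with Lypd8. Ly6g2, Lypd1, and the list genes below the 4 lowest p-values were named after their values were seen. Alternatives were quantile normalization, array median centring, weights per array, a block for the replicate number, and the fit without each array or without both that stood apart. Others were a robust prior, a filter on SD, the mean of a gene's probe sets, and leaving out probe sets ending in _x_at or _s_at. The methods' t-test was used for counts only and is not among the alternatives counted for log2 differences. The SD limit of 0.1 and the correlation with array medians were chosen after seeing the data.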

Additional observations from a re-analysis of the deposited data

Results flagged for a closer look

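Each member probe set was searched in each group of 4 mice for a mouse far from the other 3, by the gap to its nearest neighbour over the range of the group. This held for 2 of 16 groups, and chance alone gives about 1 in 20. Ly6e was at 1.38 on the centred log2 scale in BTWT replicate 3 by probe set 1439773_at, while the other 3 BTWT mice were between -0.01 and 0.02. Ly6d was at 0.0871 in BTΔMAFF replicate 4, 1 of the 2 arrays that stood apart, while the other 3 mice of that group were between -0.01 and -0.003.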

How the results depend on the processing

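The log2 difference of Ly6m, which was chosen on this contrast, was below 0 under all 17 alternatives run. It ran from -2.09 (without both arrays that stood apart) to -1.67 (without BTΔMAFF replicate 3) and was -2.01 with array weights. Since its groups did not overlap, leaving arrays out could not change its sign. A replicate block, a robust prior, and the filter on SD left it at -1.84 by construction. The same holds for the choices among a gene's probe sets, as Ly6m had 1. The count of alternatives is therefore no support for the difference. Single arrays left out gave -2.08 to -1.67 for Ly6m, 0.014 to 0.48 for Ly6e, and -0.07 to 0.02 for Lypd8. With array weights the difference of Ly6e became 0.90, since its 1 high value (1.38) is in BTWT replicate 3, the array of largest weight (4.68). In the same fit 4 other family genes, all following the array medians, were higher at an unadjusted p under 0.05. There, 274 probe sets were higher and 402 lower past both thresholds. Those counts were 110 to 147 and 119 to 204 when single arrays were left out, with 204 without BTΔMAFF replicate 4. The cause of the changes in these counts was not tested. With the replicate number as a block, 121 probe sets were higher and 121 lower and Ly6m was at -1.84. The deviations of same-numbered mice had an r of 0.392 for number 1, where the BTWT mouse had an r of at most -0.06 with a BTΔMAFF mouse of another number, but of -0.04, 0.03, and -0.27 for numbers 2 to 4, so the numbers were not taken to pair the mice. The methods' t-test gave 98 higher and 117 lower. The filter on SD removed Ly6d, Ly6k, and Lypd8, so it gives no median of the members. Centred values hold no signal over background, so a level or a detection limit cannot be given for any gene here.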
